A study of Mus musculus with 12 samples.

Results

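Fc receptors and the Fc receptor-like gene Fcrls were followed in bone marrow-derived macrophages (BMDMs) lacking the HSS9 region upstream of Tnf and in control BMDMs. The 7 genes are Fcrls, Fcgr1, Fcgr3, Fcgr4, Fcer1g, Fcgr2b and Fcgrt, out of 48526 genes in the count table, and all 7 passed the filter on low counts. They were picked by symbol, and Fcrls was chosen by its difference between knockout (KO) and wild type (WT) after LPS. Values of that contrast are therefore given for the 7 genes without a test.

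Fc gamma receptors bind the constant part of IgG and let macrophages take up and respond to antibody-coated particles and immune complexes. Fcgr1, Fcgr3 and Fcgr4 encode activating receptors, which signal through the common gamma chain encoded by Fcer1g and the kinase Syk. Fcgr2b encodes the inhibitory receptor, whose cytoplasmic motif recruits the lipid phosphatase encoded by Inpp5d. Fcgrt encodes the heavy chain of the neonatal Fc receptor, which pairs with beta-2-microglobulin and recycles IgG from endosomes, and Fcrls encodes a scavenger-type relative of these receptors that serves as a marker of microglia and some tissue macrophages.

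Total RNA was sequenced from 12 libraries in 4 groups of 3. The groups were WT without LPS (WT UT, labelled as PBS for 6 hr), KO without LPS (KO UT), WT with LPS for 6 hr (WT LPS) and KO with LPS for 6 hr (KO LPS). KO mice were homozygous for the HSS9 deletion, a germline deletion present in every cell, and the methods of the study describe young adult male mice and culture in L929-conditioned medium. The labels call the WT mice littermates, whereas the methods describe purchased C57BL/6 mice, so a shared background is not assured. Each library carried a batch number from 1 to 3, equal to its replicate number, and nothing states that the libraries of a group came from separate mice, so p-values measure the spread between these libraries, which may be technical. In bulk samples, fewer cells of a type and less RNA per cell cannot be told apart.

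Library totals ranged from 26154533 to 36423921 counts, and the 7 genes had between 534 and 53382 counts in a library. Levels are given as CPM, the counts of a gene relative to the library size after TMM scaling, which evens out composition. Tnf was at 15.3 CPM in WT UT, 9.71 CPM in KO UT, 890 CPM in WT LPS and 432 CPM in KO LPS, so it was lower in KO at both treatments. The deleted region is upstream of the gene, so this checks the genotype labels only indirectly. All 7 macrophage markers examined (Adgre1, Csf1r, Cd68, Mertk, Itgam, Cd14 and Lyz2) were detected in every library, at 26363 to 34143 CPM in sum. The summed markers of B cells, T cells, NK cells, mast cells, dendritic cells and stromal cells stayed at or below 8.42 CPM each. The 6 neutrophil markers summed to at most 19.3 CPM in WT UT, 40.1 to 45.2 CPM in KO UT, 50.3 to 79.0 CPM in WT LPS and 67.0 to 76.2 CPM in KO LPS, with Ly6g at 0 in all libraries. Short structured RNA genes, such as snoRNAs and snRNAs, took 3.00 to 3.25% of counts in WT UT, 6.64 to 7.98% in KO UT, 4.04 to 6.89% in WT LPS and 3.23 to 3.43% in KO LPS.

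In GRCm38, 4 of the genes lie close together on chromosome 1, namely Fcgr2b (170958617 to 170976547, minus strand), Fcgr4 (171018920 to 171029761, plus strand), Fcgr3 (171051174 to 171064935, minus strand) and Fcer1g (171229572 to 171234365, minus strand). Fcrls (87250758 to 87263738) and Fcgr1 (96282909 to 96293969) are on the minus strand of chromosome 3, and Fcgrt (45092990 to 45103851) is on the minus strand of chromosome 7. All are protein coding, and none is on the chromosome of Tnf. Fcgr2b shares 155 exonic bases with the antisense gene Gm38204, and 4.23% of its windows of about a read in length occur in other genes, 42 of them in Fcgr3. The same 42 windows are 2.42% of Fcgr3, and no window of the other 5 genes was shared. Whether the counting used strand or multi-mapping reads is not stated, so a small part of the Fcgr2b and Fcgr3 counts is uncertain.

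Promoter sequence is shown for Fcgr1 and Fcgr4, which rose with LPS and held matches to interferon-responsive elements, and for Fcer1g, which rose, and Fcgrt, which fell, neither of which held one. Of the 5 genes that rose with LPS, 3 (Fcgr2b, Fcgr3 and Fcer1g) held neither GAS nor the ISRE core in the window searched. Of the 250 bases of that window, 187 in Fcgr2b and 136 in Fcrls lie in annotated exons of the gene itself. The lack of a match in Fcgr2b therefore says little about the sequence upstream of that gene. The sequences are from RefSeq (GRCm38.p6), cover the 250 bases before the RefSeq start and are read on the strand of the gene. Capitals mark exact matches on either strand to GAS (TTCNNNGAA, an interferon-responsive element), the ISRE core (GAAA, any 2 bases and GAAA again, an element bound by IRF factors) or the PU.1 core (GAGGAA, bound by the macrophage lineage factor PU.1).
Fcgr1, chr3:96293970-96294219, minus strand: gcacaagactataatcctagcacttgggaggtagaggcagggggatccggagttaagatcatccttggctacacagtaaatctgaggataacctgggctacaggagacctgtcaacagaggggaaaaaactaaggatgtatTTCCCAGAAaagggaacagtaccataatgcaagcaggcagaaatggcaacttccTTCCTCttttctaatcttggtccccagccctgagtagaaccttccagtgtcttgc
Fcgr4, chr1:171018676-171018925, plus strand: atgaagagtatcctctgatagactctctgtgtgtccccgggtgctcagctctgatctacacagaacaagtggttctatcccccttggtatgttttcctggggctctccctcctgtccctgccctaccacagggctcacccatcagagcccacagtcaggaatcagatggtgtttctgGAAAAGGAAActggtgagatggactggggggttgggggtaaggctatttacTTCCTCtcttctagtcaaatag
Fcer1g, chr1:171234350-171234599, minus strand: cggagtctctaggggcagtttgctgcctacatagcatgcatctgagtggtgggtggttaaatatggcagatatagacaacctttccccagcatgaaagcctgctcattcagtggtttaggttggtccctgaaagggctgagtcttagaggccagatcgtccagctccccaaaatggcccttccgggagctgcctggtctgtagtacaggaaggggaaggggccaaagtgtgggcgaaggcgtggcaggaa
Fcgrt, chr7:45103823-45104072, minus strand: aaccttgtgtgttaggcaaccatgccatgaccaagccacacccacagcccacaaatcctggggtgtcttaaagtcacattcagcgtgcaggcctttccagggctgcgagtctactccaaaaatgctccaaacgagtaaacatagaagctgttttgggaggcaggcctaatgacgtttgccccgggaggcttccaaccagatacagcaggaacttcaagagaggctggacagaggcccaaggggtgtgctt
Among the 7 genes, GAS was matched in the window of Fcgr1 alone, beginning 109 bases before the start. The ISRE core was matched in Fcgr4 alone, beginning 73 bases before the start, and the PU.1 core in 4 genes (Fcrls, Fcgr1, Fcgr3 and Fcgr4). Of all 32851 promoter windows of this length, 7.02% held GAS, 2.98% held the ISRE core and 23.3% held the PU.1 core. These matches are letters in a window and no measure of binding.

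LPS moved all 7 genes in both genotypes. Fcgr2b, Fcgr4, Fcgr1, Fcer1g and Fcgr3 were higher with LPS, and Fcrls and Fcgrt were lower. The largest of these changes was in the inhibitory receptor, with Fcgr2b 39.0-fold higher in WT and 45.5-fold higher in KO. Against WT UT, 5 genes were higher and 2 lower at an adjusted p below 0.05 in WT LPS (edgeR quasi-likelihood test, Benjamini-Hochberg over 15523 genes), beside 38.0% of all genes higher and 35.3% lower, 73.3% in all. In KO LPS against KO UT, 5 were higher and 2 lower, beside 35.1% and 37.7% of all genes, 72.8% in all. With an absolute log2 fold change above 1 as well, 6 of the 7 were called in WT (4 higher, 2 lower) beside 37.8% of all genes, and 5 in KO (4 higher, 1 lower) beside 37.0%. Fcer1g in KO (1.01) and Fcgrt in WT (-1.04) were only just past that cut. The median log2 fold change of the 7 genes was 1.39 in WT and 1.01 in KO, beside 0.0471 and -0.0555 over all genes. With LPS the summed neutrophil markers were higher in both genotypes and the summed macrophage markers lower, without overlap, and the share of short structured RNAs was higher in WT and lower in KO. Both lists held members that moved the other way. S100a8 (log2 fold change 2.84 in WT, 1.80 in KO) and Camp rose, whereas S100a9 fell (-0.86, -1.32) and Mpo fell in KO (-2.88). Lyz2, the macrophage marker with the highest CPM, fell (-0.34, -0.43), as did Cd68 and Mertk. Cd14 (2.68, 2.16), Itgam (1.16, 1.38) and Adgre1 (0.34, 0.46) rose, all at an adjusted p below 0.05. The summed B cell and NK cell markers, each at or below 1.79 CPM, were lower with LPS in both genotypes without overlap. The summed stromal markers were higher with LPS in KO (4.11 to 5.67 CPM in KO UT, 6.91 to 8.42 CPM in KO LPS) and overlapped in WT. With the share of short structured RNAs as a covariate all 7 genes kept their direction and their side of the threshold in both genotypes, and the part of the markers was not tested.

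**Figure D1:**
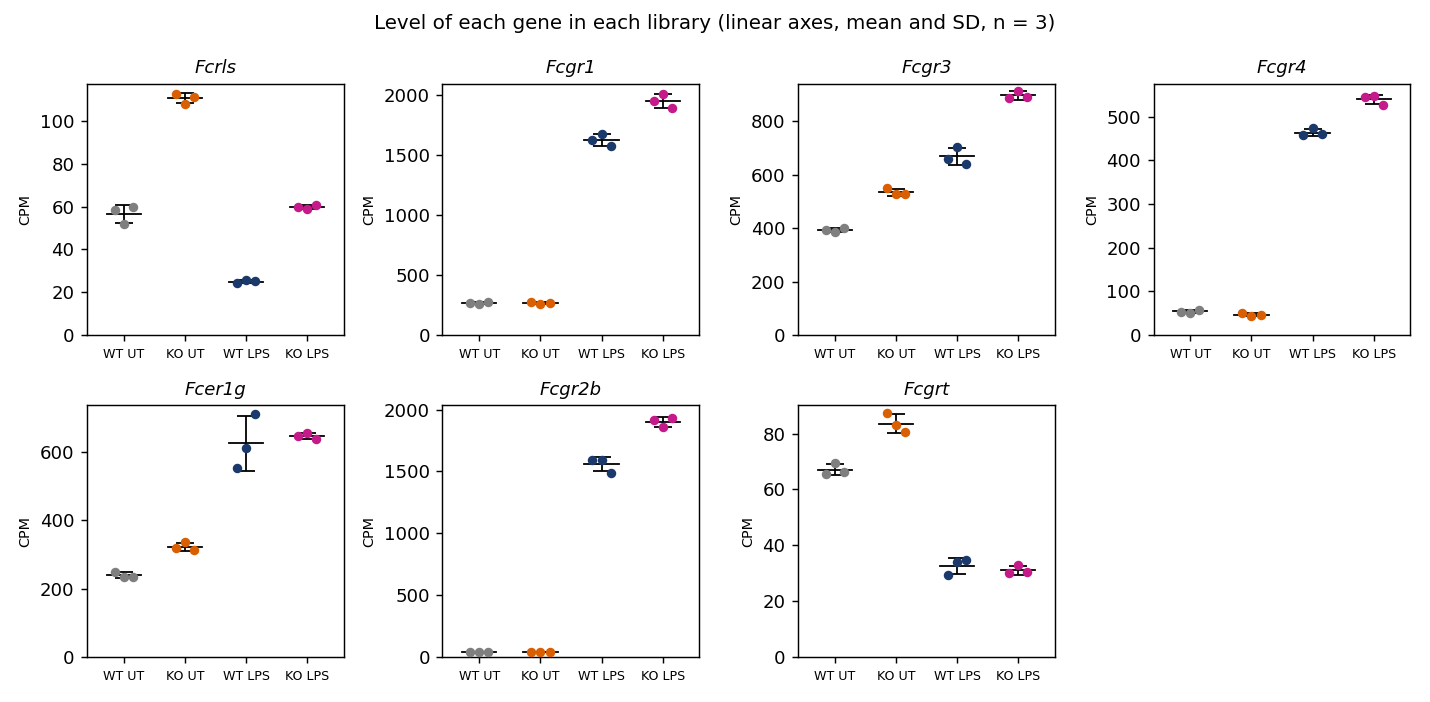
Level of each gene (CPM, linear vertical axes from 0) in each of the 12 libraries, by group, where points are libraries and black bars are the mean and SD of 3. Fcrls is at 108 to 113 CPM in KO UT and 24.2 to 25.5 CPM in WT LPS, the highest and lowest of its groups, while Fcgr2b stays below 43 CPM without LPS and exceeds 1490 CPM with it.

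Without LPS, the clearest genotype difference was in Fcrls, which was 1.95-fold higher in KO. Fcgr3, Fcer1g and Fcgrt were also higher in KO UT than in WT UT, Fcgr4 was slightly lower, and Fcgr1 and Fcgr2b did not pass the test. That is 4 genes higher and 1 lower at an adjusted p below 0.05, beside 14.1% of all genes higher and 9.69% lower, 23.8% in all. None of the 7 passed when an absolute log2 fold change above 1 was also required, as 1.82% of all genes did. The median log2 fold change was 0.32 over the 7 genes and 0.00137 over all genes. The share of counts on short structured RNAs was higher in every KO UT library than in any WT UT library. So were the summed neutrophil markers, the 7 summed macrophage markers (28651 to 29710 CPM in WT UT, 33054 to 34143 CPM in KO UT) and the 5 summed mast cell and basophil markers (0.243 to 0.744 CPM in WT UT, 0.961 to 1.30 CPM in KO UT). Of the macrophage markers 5 were higher in KO UT, among them Cd14 (0.46, adjusted p 9.15e-07) and Cd68 (0.40, adjusted p 4.72e-05), and Csf1r was lower (-0.13, adjusted p 0.0491). With the share of short structured RNAs as a covariate, 2 of the 5 calls were kept, those of Fcrls (log2 fold change 0.91, adjusted p 1.34e-04) and Fcgr3 (0.48, adjusted p 0.00344). The summed stromal markers overlapped (3.77 to 4.49 CPM in WT UT, 4.11 to 5.67 CPM in KO UT), and 2 of the 5, Dcn (1.45, adjusted p 0.0215) and Pdgfra (1.45, adjusted p 0.0435), were higher in KO UT. The part of these markers in the results was not tested.

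Fcrls in WT UT was at 58.3, 52.0 and 59.7 CPM in batches 1, 2 and 3. In KO UT it was at 113, 108 and 111 CPM, in WT LPS at 24.2, 25.5 and 25.2 CPM, and in KO LPS at 59.8, 58.9 and 60.6 CPM. KO UT was thus above every other group and WT LPS below every other group, whereas the KO LPS and WT UT libraries overlapped. Without LPS, the KO to WT log2 fold change was 0.97 (SE 0.0566, adjusted p 1.28e-10), and it was 0.95, 1.05 and 0.90 within batches 1, 2 and 3. LPS lowered Fcrls in WT (log2 fold change -1.18 ± 0.0619 SE, adjusted p 1.46e-13) and in KO (-0.89 ± 0.0574 SE, adjusted p 6.29e-12). The mean level in KO LPS, 59.8 ± 0.847 CPM (SD, n = 3), was 2.40-fold that in WT LPS, 25.0 ± 0.702 CPM (SD, n = 3), with a log2 fold change of 1.26 (SE 0.0627), and this is the value on which the gene was chosen.

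Among the activating receptors, Fcgr1, the high-affinity IgG receptor, was at 271, 257 and 273 CPM in WT UT and at 274, 256 and 264 CPM in KO UT. With LPS it was at 1625, 1676 and 1576 CPM in WT and at 1944, 2004 and 1886 CPM in KO. The genotypes overlapped without LPS (log2 fold change -0.0132, 95% confidence interval -0.12 to 0.0887, adjusted p 0.885) and did not overlap with it. Its LPS response was 2.61 in WT (log2 fold change with an SE of 0.0516, adjusted p 4.55e-21) and 2.88 in KO (SE 0.0522, adjusted p 9.66e-22).

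Fcgr3, a low-affinity receptor for IgG complexes, was at 392, 386 and 399 CPM in WT UT and at 548, 526 and 527 CPM in KO UT. After LPS it was at 659, 705 and 639 CPM in WT and at 885, 913 and 889 CPM in KO. Its 4 groups did not overlap, and KO was above WT at both treatments. The KO to WT difference without LPS was 0.44 (log2 fold change with an SE of 0.0496, adjusted p 1.41e-06), positive in 3 of 3 batches. Its LPS response was the smallest of the 5 genes that rose, with log2 fold changes of 0.77 in WT (adjusted p 6.75e-12) and 0.75 in KO (adjusted p 1.04e-11).

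Fcgr4, the receptor of intermediate affinity for mouse IgG2 subclasses, was at 53.3, 51.6 and 57.3 CPM in WT UT and at 49.7, 44.0 and 46.7 CPM in KO UT. With LPS it was at 458, 473 and 459 CPM in WT and at 545, 547 and 527 CPM in KO. KO thus lay below WT without LPS and above WT after LPS, with no overlap of libraries in either treatment. The difference without LPS was small (log2 fold change -0.21 ± 0.0584 SE, adjusted p 0.0118), and the call was lost without WT UT replicate 3 (-0.16, adjusted p 0.0902), without KO UT replicate 2 (-0.16, adjusted p 0.0906) and with the share of short structured RNAs as a covariate (-0.23, adjusted p 0.315). LPS raised Fcgr4 by 3.10 in WT (log2 fold change with an SE of 0.0609, adjusted p 4.04e-21) and by 3.53 in KO (SE 0.0622, adjusted p 6.28e-22).

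Fcer1g, the signalling chain that the activating receptors share, was at 249, 234 and 233 CPM in WT UT and at 318, 336 and 312 CPM in KO UT. In WT LPS the libraries ranged most widely, at 554, 612 and 713 CPM, and they enclosed those of KO LPS at 646, 657 and 638 CPM. LPS raised Fcer1g in WT (log2 fold change 1.39 ± 0.0699 SE, adjusted p 7.29e-14) and in KO (1.01 ± 0.0692 SE, adjusted p 1.77e-11). Without LPS it was higher in KO (0.43 ± 0.0688 SE, adjusted p 7.58e-05), in 3 of 3 batches. With the share of short structured RNAs as a covariate this difference turned to -0.0638 (adjusted p 0.817).

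Fcgr2b, the inhibitory receptor, was at 39.2, 42.3 and 38.3 CPM in WT UT and at 40.3, 42.6 and 42.4 CPM in KO UT. With LPS it was at 1589, 1595 and 1490 CPM in WT and at 1914, 1857 and 1930 CPM in KO. The UT groups overlapped (log2 fold change 0.0651, 95% confidence interval -0.0472 to 0.18, adjusted p 0.434), and every KO LPS library was above every WT LPS library. The LPS response was 5.29 in WT (log2 fold change with an SE of 0.0612, adjusted p 1.03e-24) and 5.51 in KO (SE 0.0620, adjusted p 6.77e-25).

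Fcgrt, the heavy chain of the neonatal Fc receptor, was at 65.7, 69.4 and 66.3 CPM in WT UT and at 87.2, 83.0 and 80.5 CPM in KO UT. After LPS it was at 29.4, 33.9 and 34.6 CPM in WT and at 29.9, 33.0 and 30.3 CPM in KO, and the LPS groups overlapped. LPS lowered it in WT (log2 fold change -1.04 ± 0.0666 SE, adjusted p 5.04e-12) and in KO (-1.43 ± 0.0665 SE, adjusted p 1.87e-14). Without LPS it was higher in KO (0.32 ± 0.0624 SE, adjusted p 6.50e-04), in 3 of 3 batches, but with the share of short structured RNAs as a covariate the difference was -0.0251 (adjusted p 0.954). Its partner B2m moved the other way with LPS, with log2 fold changes of 1.37 in WT (adjusted p 4.80e-16) and 1.03 in KO (adjusted p 6.67e-14).

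**Figure D2:**
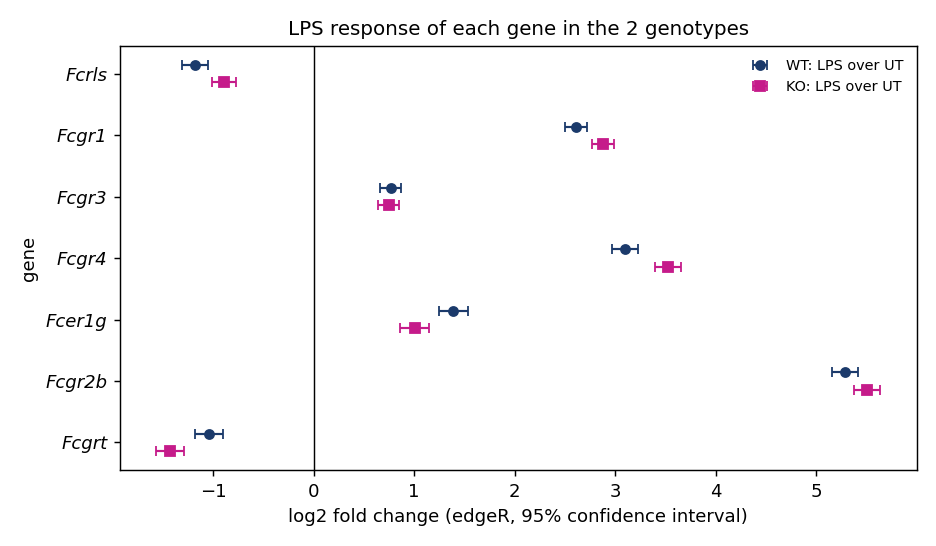
LPS response of each gene as the log2 fold change of LPS over UT (horizontal axis, points with 95% confidence intervals from the edgeR fit), in WT (circles) and KO (squares), 3 libraries a group. Fcgr2b stands farthest to the right, at 5.29 and 5.51, and Fcrls and Fcgrt alone lie below 0.

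The comparison of KO LPS with WT LPS is described without a test, since the gene set was selected on it. Relative to WT LPS, log2 values were 1.26 for Fcrls, 0.42 for Fcgr3 (SE 0.0496), 0.29 for Fcgr2b (SE 0.0505), 0.26 for Fcgr1 (SE 0.0485) and 0.22 for Fcgr4 (SE 0.0557). In these 5 genes every KO LPS library was above every WT LPS library. The share of all genes that lie so was not computed, so the count of 5 is not read as a result. The 5 stromal markers summed to 1.89 to 4.29 CPM in WT LPS and 6.91 to 8.42 CPM in KO LPS, none of them at 0 in a whole group, and Col1a1, Col1a2, Col3a1 and Dcn were 2.27- to 2.98-fold higher in KO LPS (adjusted p 0.00655 to 0.029). The summed mast cell and basophil markers were at 0.298 to 0.566 CPM in WT LPS and 0.622 to 1.84 CPM in KO LPS, and the summed macrophage markers at 26363 to 27806 CPM and 28347 to 30095 CPM. The part of these 3 marker lists in the values of the 7 genes was not tested. The share of short structured RNAs was lower in every KO LPS library than in any WT LPS library, and with it as a covariate the values were 1.29 for Fcrls, 0.41 for Fcgr3, 0.21 for Fcgr2b, 0.24 for Fcgr1, 0.23 for Fcgr4, 0.29 for Fcer1g and 0.0958 for Fcgrt. Fcer1g (0.0480, SE 0.0685) and Fcgrt (-0.0687, SE 0.0698) overlapped. Of all genes, 14.3% passed an adjusted p of 0.05 in this contrast, and nothing is read from the count beside it. The difference between the LPS responses of the genotypes (KO minus WT, log2) was 0.43 for Fcgr4, 0.30 for Fcrls, 0.27 for Fcgr1, 0.22 for Fcgr2b, -0.0204 for Fcgr3, -0.38 for Fcer1g and -0.39 for Fcgrt. Whether these differ from 0 was not tested, because they contain the contrast that chose the genes, and the genotype and LPS comparisons share libraries.

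**Figure D3:**
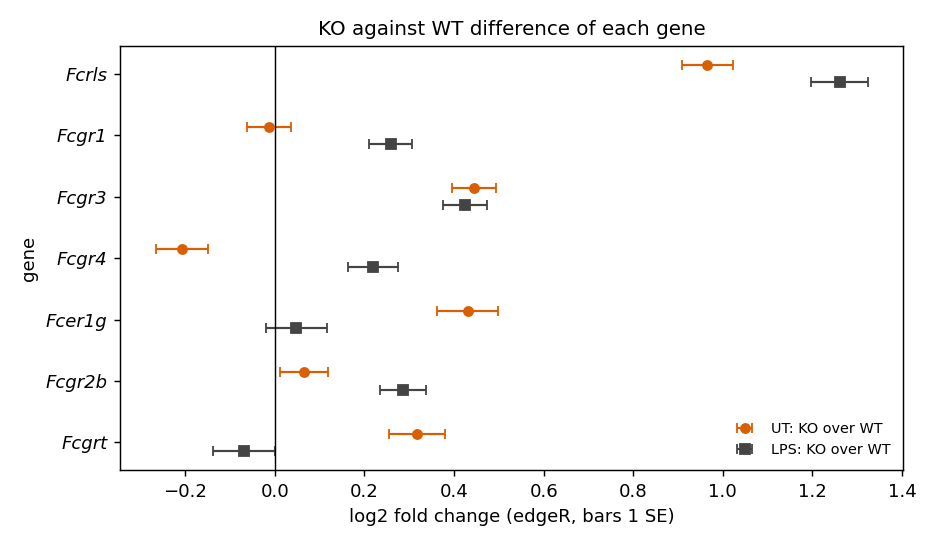
KO to WT difference of each gene as a log2 fold change (horizontal axis, points with bars of 1 SE from the edgeR fit), without LPS (circles) and with LPS (squares), 3 libraries a group. Fcrls lies farthest to the right at both treatments (0.97 and 1.26), and Fcgr4 is below 0 without LPS (-0.21) and above 0 with it (0.22).

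Levels of different genes were compared per kilobase of exon, with the length taken over all annotated exons of a gene. That length is 5790 bases for Fcgr2b and 874 to 2589 bases for the other genes. If the Fcgr2b transcripts in use were shorter, its level on this scale would be higher, so its rank depends on this length. In WT UT, Fcer1g (273 ± 10.5 CPM per kb, SD, n = 3) and Fcgr3 (226 ± 3.79) were highest and Fcgr2b (6.90 ± 0.367) was lowest. KO UT had the same highest and lowest genes, and Fcrls, at 47.4 ± 1.01 CPM per kb, stood at rank 4 of the 7 there and at rank 6 in WT UT. With LPS, Fcer1g and Fcgr1 led in both genotypes, overlapping each other, and Fcgr2b had reached 269 ± 10.1 CPM per kb in WT and 328 ± 6.65 CPM per kb in KO. In WT LPS the libraries of Fcgr3 and Fcgr4 overlapped on this scale (385 ± 19.3 and 369 ± 6.83 CPM per kb), and in KO LPS they did not (516 ± 8.87 and 429 ± 8.45).

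The balance of activating to inhibitory receptor transcripts narrowed with LPS for Fcgr1, Fcgr3 and Fcgr4 in both genotypes. So did the ratio of Fcer1g, the gene of their shared signalling chain, to Fcgr2b. As a log2 ratio of CPM per kb within a library, Fcgr3 to Fcgr2b was 5.04 ± 0.0993 in WT UT, 5.41 ± 0.0774 in KO UT, 0.51 ± 0.0456 in WT LPS and 0.65 ± 0.0534 in KO LPS (SD, n = 3). For Fcgr1 the ratio was 3.90 ± 0.123 in WT UT and 1.22 ± 0.0257 in WT LPS, and for Fcgr4 it was 2.64 ± 0.147 and 0.46 ± 0.0486. For Fcer1g it was 5.31 ± 0.104 in WT UT and 1.41 ± 0.234 in WT LPS. In each of these ratios every LPS library was below every UT library, and each remained above 0 with these exon lengths. A shorter length for Fcgr2b would lower all the ratios by the same amount, so nothing is read from their sign. The ratios follow from the fold changes above and were not tested again.

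**Figure D4:**
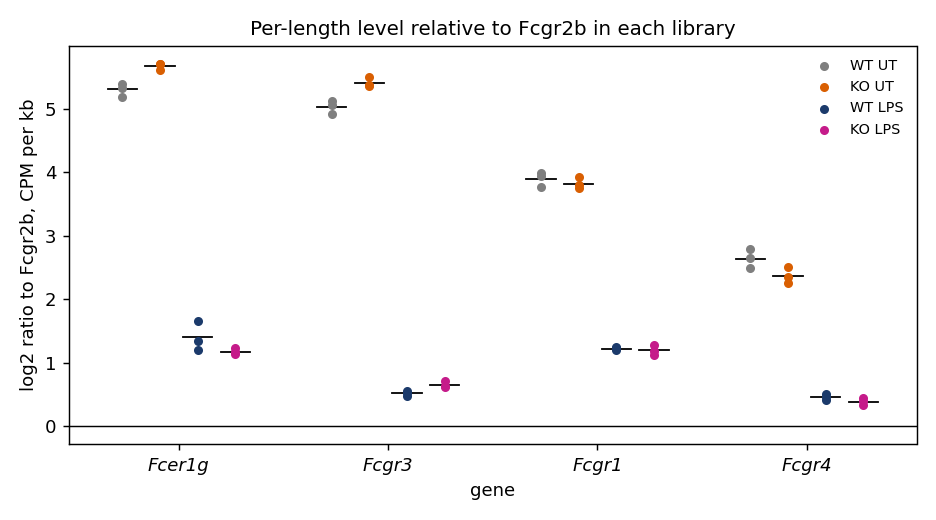
Level of each activating receptor gene and of the signalling chain gene Fcer1g relative to Fcgr2b in each library (log2 ratio of CPM per kb of exon, vertical axis), by group, where points are libraries and black lines are means of 3. Ratios lie between 2.25 and 5.71 without LPS and between 0.33 and 1.66 with LPS.

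The genes most like each of the 7 were taken as the 3 with the highest Pearson r in log2 CPM over the 12 libraries, among 9588 well-counted genes. All points share these libraries, of which 6 had LPS and 6 had not, so r is a description and carries no p. Nearest to Fcrls were C1qb (r 0.990), a chain of the complement component that binds antibody complexes, Impdh2 (0.983) and Cmtm3 (0.982). C1qb was at 386 ± 3.85 CPM in WT UT, 601 ± 27.6 CPM in KO UT, 243 ± 17.3 CPM in WT LPS and 427 ± 12.3 CPM in KO LPS (SD, n = 3), the order of groups being that of Fcrls. Nearest to Fcgr3 were Clec12a (0.997), an inhibitory lectin receptor of myeloid cells, Atp5a1 (0.994) and Nap1l4 (0.988). Fcer1g was nearest to B2m, Eif4e2 and Cnih4 (each 0.996), and Fcgrt to Smagp (0.997), Fuca1 (0.996) and Prkra (0.996). For Fcgr1 the nearest were Hcls1, Ctsc and Fabp7 (each 0.999), for Fcgr2b Rapgef2, Ctsc and Cemip2, and for Fcgr4 Spata13, Ms4a6d and Gm49342 (each 0.999).

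Other genes of Fc receptors, their chains and Fc receptor-like proteins mostly fell under the filter on low counts, which 4 of 12 such genes passed. With LPS, Trim21, a cytosolic antibody receptor, rose in WT (log2 fold change 3.03, adjusted p 5.68e-21) and KO (3.06, adjusted p 5.26e-21), and Fcrlb rose from 0.129 to 10.4 CPM in WT (adjusted p 1.69e-14) and from 0.0807 to 9.76 CPM in KO (adjusted p 3.48e-14). Fcrl1, a relative of Fcrls best known from B cells, fell with LPS like Fcrls, from 24.5 to 3.91 CPM in WT (adjusted p 2.20e-16) and from 33.9 to 5.56 CPM in KO (adjusted p 6.64e-17). It was also higher in KO than in WT without LPS (0.47, adjusted p 6.67e-05) and with LPS (0.50, adjusted p 0.00553), and with the share of short structured RNAs as a covariate the values were 0.61 ± 0.260 SE (adjusted p 0.194) and 0.43 ± 0.164 SE (adjusted p 0.1003), neither past the test. The 5 summed B cell markers were at 0.750 to 1.30 CPM in WT UT, 1.10 to 1.79 CPM in KO UT, 0.0898 to 0.283 CPM in WT LPS and 0.220 to 0.268 CPM in KO LPS. Cd79b, the one of them that passed the filter, was lower with LPS in WT (-2.84, adjusted p 4.33e-05) and KO (-3.25, adjusted p 3.53e-06), and its part in the Fcrl1 result was not tested.

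The 3 partners of receptor surface expression, B2m, Tyrobp and Hcst, were all higher in KO UT than in WT UT, as 14.1% of all genes were. Tyrobp, a signalling adaptor of myeloid receptors, was at 1518 CPM in WT UT and 2537 CPM in KO UT (log2 fold change 0.74, adjusted p 1.51e-05), Hcst differed by 0.70 (adjusted p 5.85e-04) and B2m by 0.36 (adjusted p 2.21e-05). With the share of short structured RNAs as a covariate all 3 calls were lost, at -0.23 for Tyrobp (adjusted p 0.117), -0.0243 for Hcst (adjusted p 0.985) and 0.0713 for B2m (adjusted p 0.709). After LPS none of the 3 passed the test between genotypes in edgeR, with unadjusted p from 0.252 to 0.650. With the share of short structured RNAs as a covariate, Tyrobp went from -0.0540 to 0.44 (adjusted p 5.85e-07) and B2m from 0.0236 to 0.17 (adjusted p 0.0223) in this contrast.

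Signalling genes downstream of the activating receptors rose and fell with LPS. Of 29, 17 were higher and 10 lower in WT, and 19 were higher and 10 lower in KO, beside the 38.0% higher and 35.3% lower of all genes in WT and the 35.1% and 37.7% in KO. The median log2 fold change of the 29 was 0.67 in WT and 0.64 in KO. The kinase gene Src (log2 fold change 4.81 in WT, adjusted p 1.16e-21), the paracaspase gene Malt1 (4.40, adjusted p 1.60e-23) and the adaptor gene Lcp2 (3.41, adjusted p 2.29e-21) rose most among those that did. Without LPS, 1 of the 29 was higher in KO and 7 were lower, beside 14.1% and 9.69% of all genes, with a median of -0.0396. Among those lower were the kinase genes Fgr (-0.66, adjusted p 1.08e-07) and Syk (-0.29, adjusted p 5.38e-04) and the adaptor gene Lcp2 (-0.33, adjusted p 5.34e-04), and the adaptor gene Lat2 was the one higher (0.34, adjusted p 6.68e-05). With the share of short structured RNAs as a covariate, Fgr kept its call (-0.47, adjusted p 0.0183), and Syk (-0.12, adjusted p 0.614), Lcp2 (-0.0467, adjusted p 0.890) and Lat2 (0.13, adjusted p 0.630) did not pass. After LPS, 8 were higher in KO, led by the kinase gene Tec (0.41, adjusted p 3.14e-04), and 1 was lower, beside 14.3% of all genes in either direction, with a median of 0.0550.

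Of 10 genes of inhibitory signalling that were tested, 5 were higher and 5 lower with LPS in WT, and 4 were higher and 4 lower in KO, where 73.3% and 72.8% of all genes passed in either direction. The medians were -0.0103 in WT and -0.0131 in KO. Inpp5d, the lipid phosphatase that acts downstream of Fcgr2b, was 2.26-fold lower with LPS in WT (adjusted p 8.77e-15) and 1.63-fold lower in KO (adjusted p 5.44e-11), while Fcgr2b itself rose. Without LPS, 2 were higher in KO, led by the adaptor gene Dok2 (0.47, adjusted p 5.67e-06, and 0.39, adjusted p 0.121, with the share of short structured RNAs as a covariate), and 2 were lower, among them Inpp5d (-0.17, adjusted p 0.0209), beside 23.8% of all genes in either direction. After LPS, 3 were higher in KO, led by Inpp5d (0.30, adjusted p 5.73e-04), beside 14.3%. Over all 4 lists, the 16 genes past the test between genotypes without LPS became 10 without WT UT replicate 2 and 3 with the share of short structured RNAs as a covariate, of which 1 (Fgr) was among the 16. Of the 15 calls lost with that covariate, 10 kept their direction, 3 of them with a log2 fold change no smaller, and the median SE over the lists rose from 0.0589 to 0.120. The 13 past it after LPS became 20 without WT LPS replicate 1 and 6 with that covariate, of which 3 (Tec, Malt1 and Inpp5d) were among the 13, and all 10 lost calls kept their direction.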

How the data were processed

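Total RNA from BMDMs was extracted with TRIzol and made into stranded, globin-depleted libraries. According to the submitters' processing notes, tools were FastQC 0.11.9, HISAT2 2.1.0, SAMtools 1.17 and featureCounts 2.0.0, with GRCm38. The authors deposited raw counts per gene, not normalized; annotation release, strand setting and multi-mapping treatment are not given in the sources used here.

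Of 48526 identifiers, 48058 matched GENCODE M21 without their version. edgeR 4.0.16 (limma 3.58.1, R 4.3.3) with TMM, filterByExpr (minimum count 10, total 15) and group means over 12 libraries was fitted to 15523 genes (common biological coefficient of variation 0.0712). CPM used TMM-scaled library sizes. The scripts were tested on simulated data. DESeq2 1.42.0, other scalings, filters, covariates, a replicate block and leaving out each library were alternatives. Figures used matplotlib.

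The 7 genes, the lists and the named-gene rule (at most 4 per list and contrast, mean CPM of at least 5) were chosen with earlier results of these data known. 1 gene that the rule names is not reported here. The labels give batch numbers equal to replicate numbers, which pair the libraries; deviations of 18 same-batch pairs correlated at -0.0631 to 0.0373, with 0 over 0.1. No replicate pair agreed within counting noise (chi-square per degree of freedom at least 3.81).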

Additional observations from a re-analysis of the deposited data

Results flagged for a closer look

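Fcgr4 was below WT in every KO library without LPS and above WT in every KO library with LPS. The KO to WT log2 fold change with LPS minus that without LPS was 0.43. The difference was not tested, and the lower level in KO without LPS lost its call without WT UT replicate 3 (-0.16, adjusted p 0.0902) or KO UT replicate 2 (-0.16, adjusted p 0.0906).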

How the results depend on the processing

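All 119 alternative values of the 7 genes kept their direction and side of the threshold in each of the 2 LPS contrasts. Between genotypes without LPS, 114 did, 3 lost the call (all Fcgr4) and 2 reversed. Both reversals came with the share of short structured RNAs as a covariate, which gave Fcer1g -0.0638 (adjusted p 0.817) and Fcgrt -0.0251 (adjusted p 0.954) and left 2 genes past the test without LPS. A required absolute log2 fold change above 1 left 0 there. That covariate left 3 related genes past the test between genotypes without LPS and 6 after LPS, and it turned Fcgrt to 0.0958 in KO LPS against WT LPS. Leaving out single libraries gave 10 to 14 related genes without LPS and 10 to 20 after LPS, and these counts were taken after the data had been seen. In KO LPS against WT LPS, Fcrls was 1.22 with protein-coding genes only, and Fcer1g ranged from -0.0326 to 0.15 with 1 library left out. The causes were not tested. The replicate block, which pairs libraries by batch, left 5, 7 and 7 genes past the 3 tests (Fcrls 0.97 without LPS) and changed no call of the 7 genes. In both LPS contrasts the median over all genes moved by -0.18 under upper-quartile scaling. Only 3 libraries a group limit the precision, and intervals cover these libraries alone.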

Other observations

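Around the 7 genes, 95 genes lie within 100 kb and 57 of them were tested. Without LPS, 15 of these were higher in KO and 1 lower (adjusted p below 0.05), beside 14.1% and 9.69% of all genes. Among the 15 were the histone genes Hist2h2ab, Hist2h2aa2, Hist2h2ac, Hist2h3b, Hist2h4 and Hist2h2bb, which all lie near Fcgr1 (log2 fold changes 0.72 to 1.10). The 15 are thus not spread evenly around the 7 genes. With LPS, 12 were higher and 21 lower in WT, beside 38.0% and 35.3%, and 9 were higher and 30 lower in KO, beside 35.1% and 37.7%. Between KO LPS and WT LPS, 3 were higher in KO and 3 lower, beside 14.3% in either direction. Cd5l, a macrophage gene that neighbours Fcrls and encodes a secreted scavenger receptor protein, was higher in KO without LPS (89.7 CPM in WT, 133 CPM in KO, log2 fold change 0.56, adjusted p 2.61e-07) and with LPS (32.9 CPM in WT, 43.9 CPM in KO, 0.41, adjusted p 1.13e-04). It fell with LPS by 1.45 on the log2 scale in WT (adjusted p 2.09e-15) and by 1.60 in KO (adjusted p 2.24e-16). Pcp4l1, near Fcer1g, was higher in KO without LPS (0.70, adjusted p 3.62e-06) and with LPS (1.04, adjusted p 2.09e-05), from 3.74 CPM in WT LPS to 7.82 CPM in KO LPS. With LPS it fell by 3.07 in WT (adjusted p 3.56e-16), whereas Fcer1g rose.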
